A study of Mus musculus with 2 samples.

Results

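The array carried 519 probes designed to RefSeq records whose accession starts with NR_, the prefix of curated noncoding transcripts. Of these, 301 probes were well above background on at least 1 of the 2 arrays and make up the set described here, out of 41174 non-control probes in all. They stood for 264 accessions and 261 features of 32202 on the whole array, a feature being a gene where the accession matched the RefSeq gene table and otherwise the accession itself. The share of NR_ probes detected on at least 1 array was 58.0%, against 63.09% of all probes. A probe counted as detected where the extraction software set its well-above-background flag, so the members were chosen by their signals on these arrays, and their levels are given as a description. At the limit of the choice, the dimmest detected members on the Th9+IFNgamma array were Gm10941 at 11.5 and 1700086L19Rik at 11.7, while the brightest NR_ probe left out there reached 12.1. On the Th9 array the dimmest were 9430041J12Rik at 13.6 and Gm16523 at 14.3, and the brightest probe left out reached 13.7.

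Both arrays measured splenic CD4 T cells of C57BL/6 mice, purified magnetically to over 98%, activated through the T cell receptor and CD28 for 2 days and grown for 3 days more. The Th9+IFNgamma culture received IL-4 at 3 ng/ml, TGFbeta at 3 ng/ml and IFNgamma at 10 ng/ml. The Th9 culture received IL-4 at 10 ng/ml, TGFbeta at 3 ng/ml and an antibody to IFNgamma at 1 µg/ml. The 2 cultures therefore differed in the dose of IL-4, in IFNgamma and in the blocking antibody, and the parts these played cannot be told apart. The labels do not say how many mice gave each culture. The series asked how helper T cells develop when IL-4 and TGFbeta act together. There was 1 array per condition, so no difference below has a replicate check, a standard error between cultures or a p-value.

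Noncoding transcripts of this kind do very different jobs. snoRNA host genes are transcribed and spliced like coding genes, and their introns release the small nucleolar RNAs that guide the modification of ribosomal RNA. The spliced host RNA itself is often short-lived, being removed by nonsense-mediated decay while it is translated, and many host genes, like ribosomal protein genes, start transcription within a run of pyrimidines. Other long noncoding RNAs act in the nucleus, as Xist does on the inactive X chromosome and Neat1 in paraspeckles, or carry microRNAs within them, or are read from the opposite strand of a coding gene. Pseudogene transcripts resemble the RNA of a parent gene.

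Signals are the processed intensities scaled so that both arrays share 1 75th percentile, and differences are log2 values, Th9+IFNgamma minus Th9. On this scale 234 features were well above background in both cultures, 17 in Th9+IFNgamma only and 10 in Th9 only. Of the 234, 16 (6.84%) had a signal in Th9+IFNgamma 2-fold or more above that in Th9 and 16 (6.84%) one 2-fold or more below it, against 5.15% above and 7.42% below of 12272 named genes. The share that was at least 2-fold apart among all named genes was 12.6%. The median difference of the members was -0.09, against -0.01 for all named genes, and 133 members (56.84%) lay below 0, against 50.4% of all named genes. Where both signals reached 100, 3 of 137 members were higher and 8 lower, against 4.52% and 4.9% of named genes so limited. As a set, noncoding RNAs therefore stood close to the rest of the array, and the classes and single transcripts are described apart below. As yardsticks of technical spread, the log2 difference of 1 spot about its probe's mean had an SD of 0.14 over 144 probes printed repeatedly, and the extraction software's own error of a log2 difference ran from 0.20 to 0.44 over the members, with a median of 0.21. Neither includes the spread between cultures. In RNA from whole cultures, fewer cells that express a gene and less RNA per cell cannot be told apart.

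**Figure D1:**
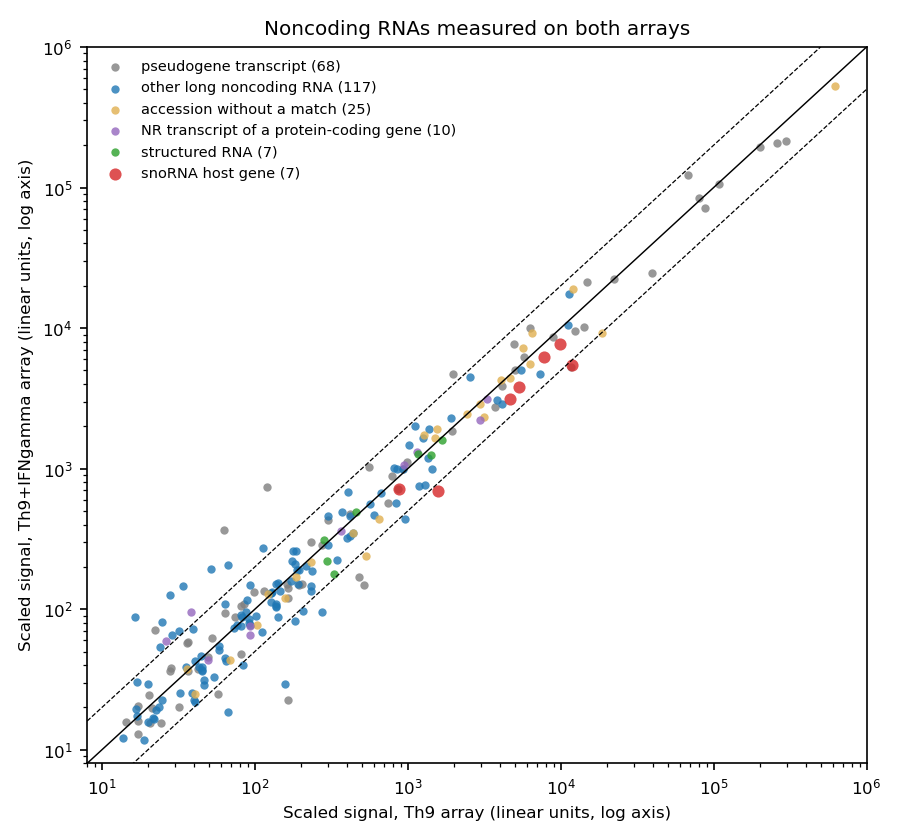
Scaled signal of each of the 234 noncoding features on the Th9 array (x axis) and on the Th9+IFNgamma array (y axis), both on log axes in linear units, coloured by class; the solid line marks equal signal and the dashed lines a 2-fold difference. Most points lie between the dashed lines, the 7 snoRNA host genes all lie below the solid line, and the scatter widens at low signal.

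All 10 CD4 T cell markers on a list of surface and signalling genes were measured on both arrays. Of these, 7 lay above 0 and 3 below, with a median of 0.19. Only Cd247, the zeta chain of the T cell receptor complex, was 2-fold apart, at 2.13-fold higher in Th9+IFNgamma. The lowest was Cd2 at -0.63, and Cd4 itself had 502 in Th9+IFNgamma and 444 in Th9. Of markers of other cells, 3 of 6 B cell genes were detected on both arrays and the list summed to a signal of 932 in Th9+IFNgamma and 1320 in Th9, while 3 of 7 macrophage or dendritic cell genes with probes were detected and the list summed to 104 and 263. Within the latter list Adgre1, which encodes F4/80, had 25.8 in Th9+IFNgamma and 186 in Th9, while Csf1r had 34.1 and 34.3, Cd14 had 26.4 and 21.3, and Lyz2 was below detection on both, so the gap between the list's sums came from Adgre1. NK cell markers (2 of 3 detected, the list summing to 151 and 133) and a granulocyte gene (Mpo, 25.4 and 37.8) were dim. So were an erythroid gene (Klf1, 87.1 and 30.1) and a stromal gene (Col1a2, 91.9 and 201), while Cd8a had 1338 and 1074. The part of such cells in the differences below was not tested.

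snoRNA host genes were the class that leaned furthest to 1 side. All 7 members measured were lower in Th9+IFNgamma, with differences from -1.19 to -0.29 and a median of -0.50. Of the 7, 2 (28.57%) were more than 2-fold lower, against 7.42% of all named genes. All 7 stayed below 0 under each way of scaling the arrays that was tried. The 60 bases around the annotated start of each host gene, from RefSeq on GRCm38.p6, are shown here because host genes as a group are known for how they start; each window is centred on the start, and capitals mark the longest unbroken run of C and T that touches the 10 bases on either side of it.
Snhg7 (chr2:26640215-26640274, minus strand): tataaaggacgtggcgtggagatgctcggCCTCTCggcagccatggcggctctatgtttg
1110038B12Rik (chr17:34952439-34952498, minus strand): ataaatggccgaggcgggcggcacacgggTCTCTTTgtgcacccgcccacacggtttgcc
Snhg20 (chr11:117076753-117076812, plus strand): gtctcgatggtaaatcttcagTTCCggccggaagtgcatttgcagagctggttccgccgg
Snhg17 (chr2:158361480-158361539, minus strand): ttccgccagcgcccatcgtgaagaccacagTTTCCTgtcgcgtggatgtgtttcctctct
Snhg16 (chr11:116671630-116671689, plus strand): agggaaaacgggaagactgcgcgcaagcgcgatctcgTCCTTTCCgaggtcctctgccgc
Snhg3 (chr4:132353657-132353716, minus strand): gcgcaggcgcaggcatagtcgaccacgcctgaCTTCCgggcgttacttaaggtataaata
Snhg8 (chr3:123508307-123508366, minus strand): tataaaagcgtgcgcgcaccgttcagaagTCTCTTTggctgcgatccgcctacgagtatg

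In the windows of Snhg7, 1110038B12Rik, Snhg17 and Snhg8 shown above, a run of 6 or 7 bases of C and T began at the annotated start or at the base before it, and in Snhg16 a run of 8 bases began at base 8, counting the start as base 1. A run of at least 8 was held by 1 of the 9 windows that RefSeq lists for the 7 genes (11.11%), by 13.69% of all 32851 promoter windows in the table and by 34.44% of the 90 windows of ribosomal protein genes. The letters TATAAA were searched on the gene's own strand in the 50 bases before the start, after the windows had been seen. They stood in 4 of the 9 host windows (44.44%) and in 2.627% of all promoter windows. By gene, they stood in 3 of the 7 hosts, namely Snhg7, 1110038B12Rik and Snhg8, and in 851 of all 27025 genes. These are matches of letters only, and 1110038B12Rik and Snhg17 each have another annotated start in the table.

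Snhg7, whose span holds Snora43 and Snora17, had a signal of 691 in Th9+IFNgamma and 1577 in Th9, which is 2.28-fold lower. 1110038B12Rik, whose span holds Snord52 and another annotated snoRNA, had 5437 and 11912, a log2 difference of -1.13 (-0.98 with the normexp background correction). The other 5 differed less. Snhg20, in whose span the table lists Mir6516 and no snoRNA, had 3107 and 4664 (-0.59). Snhg17 had 3795 and 5353 (-0.50). Snhg16, which holds Snord1a, Snord1b and Snord1c, had 7672 and 9849 (-0.36). Snhg3, which holds Snora73a and Snora73b, had 6271 and 7746 (-0.30). Snhg8, which holds Snora24, had 715 and 873 (-0.29), and its other probe gave -0.38. The last 3 differences were each smaller than 2 of the software's errors of 0.20. The NR_ probe of Rian, an imprinted host of many snoRNAs, was detected on neither array. The other 18 host genes looked for, including Gas5 and Zfas1, had no NR_ probe and are not described here.

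Picking noncoding members by position alone gave 8 whose span holds a snoRNA gene. Of these, 6 lay below 0, and all 6 were hosts already listed above, so they are not a second set. The members that position added both lay above 0. The pseudogene Gm4759, which holds Gm22372, was at 2.54 and 5730522E02Rik, which holds Gm23514, at 0.06. Coding genes that carry snoRNAs gave a mixed picture. Of 255 measured protein-coding genes whose span holds a snoRNA gene, 3 (1.18%) lay past 2-fold upward and 14 (5.49%) past 2-fold downward. Among all named protein-coding genes the shares were 5.12% and 7.42%. The median of the 255 genes was -0.10. The 27 ribosomal protein genes among them all lay below 0, between -0.70 and -0.15, with a median of -0.32, and none was 2-fold apart. Ribosomal protein genes without a snoRNA gene are not set beside them here. Whether this lean goes with the snoRNA genes or with ribosomal protein genes in general was not tested. The other 228 had a median of -0.04. Taf1d, a subunit of the RNA polymerase I selectivity factor whose NR_ isoform is a member and whose span holds 6 snoRNAs, had 2225 and 2961 (-0.41). The proteins that bind snoRNAs were near equal: 9 of 11 had values, none was 2-fold apart, and the median was -0.08, with Fbl, the methyltransferase of box C/D particles, at 67782 and 59159, and Dkc1, the pseudouridine synthase of box H/ACA particles, at 762 and 776. Of 15 nonsense-mediated decay factors, 12 were measured, with a median of 0.19 and none 2-fold apart. Upf1, the helicase of that pathway, had 1837 and 1365.

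**Figure D2:**
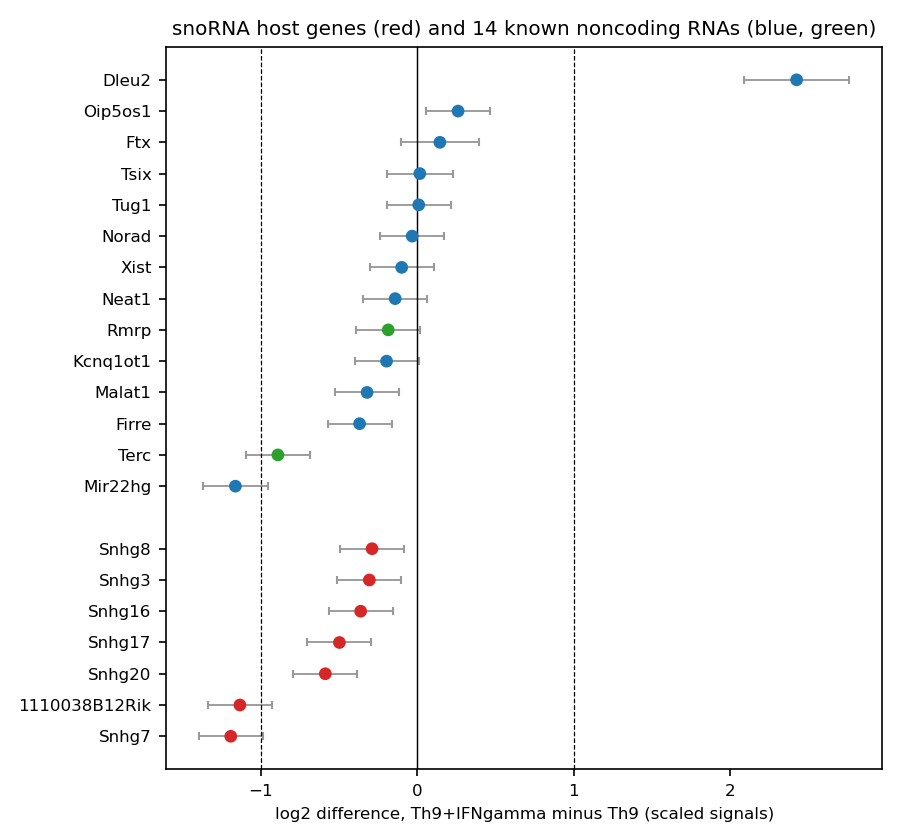
Log2 difference, Th9+IFNgamma minus Th9, of the 7 snoRNA host genes (red) and of 14 known noncoding RNAs (blue for long noncoding, green for structured); bars are the extraction software's error of the log2 difference, not a spread between cultures, and dashed lines mark a 2-fold difference. The host genes run from -1.19 (Snhg7) to -0.29 (Snhg8), and of the known RNAs Dleu2 at 2.42 and Mir22hg at -1.16 lie outside the dashed lines.

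Of a list of 35 well-known noncoding RNAs, 14 were measured on both arrays. Airn, the imprinted antisense RNA of Igf2r, was detected in Th9+IFNgamma only, Meg3 was not well above background, and 19 had no NR_ probe. Of the 14, 2 were at least 2-fold apart, against 12.6% of all named genes, namely Dleu2 and Mir22hg, which both carry microRNAs. Other microRNA hosts among the members lay within 2-fold: Ftx, also one of the 14, which holds Mir421, Mir374b and Mir374c, was at 0.15, Mir100hg at -0.24, 5730522E02Rik at 0.06 and Dubr at -0.75. All mature microRNAs that RefSeq lists for Dleu2 and Mir22hg are printed on GRCm38.p6, since the arrays measured the host RNA and not these products. Those of the other hosts are not printed. Capitals mark the seed, bases 2 to 8.
mmu-miR-15a-5p, in Dleu2 (chr14:61632075-61632096, minus strand): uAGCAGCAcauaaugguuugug
mmu-miR-16-5p, in Dleu2 (chr14:61631936-61631957, minus strand): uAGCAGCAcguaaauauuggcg
mmu-miR-15a-3p, in Dleu2 (chr14:61632038-61632059, minus strand): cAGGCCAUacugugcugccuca
mmu-miR-16-1-3p, in Dleu2 (chr14:61631894-61631915, minus strand): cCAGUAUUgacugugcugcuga
mmu-miR-22-3p, in Mir22hg (chr11:75463772-75463793, plus strand): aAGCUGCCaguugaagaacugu
mmu-miR-22-5p, in Mir22hg (chr11:75463734-75463755, plus strand): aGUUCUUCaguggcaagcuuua

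The 5p arms of the Dleu2 microRNAs share the seed AGCAGCA, which puts them in 1 family known for repressing cell cycle and survival genes, while their 3p arms have seeds of their own. Dleu2 had a signal of 88.0 in Th9+IFNgamma and 16.4 in Th9, a log2 difference of 2.42 or 5.36-fold, and its other probe gave 1.76. The Th9 signal stood just above the lowest signal called well above background on that array, 12.5, and with the normexp correction, which adds an offset of 50 to every signal, the difference was 0.79. The nearest measured coding genes in the RefSeq order, Trim13 and Dleu7, differed by 0.67 and 0.59. Mir22hg ran the other way, with 82.1 and 184, a difference of -1.16 (-0.76 with normexp). Its neighbour Tlcd2 differed by -0.80 and its neighbour Wdr81 by -0.13. Of 9 microRNA processing genes, none was 2-fold apart and the median was -0.13. Among them Drosha, the nuclease that cuts primary microRNAs, had 11556 and 8082, and Dicer1, which cuts their hairpins, had 1884 and 2068.

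The RNAs of the X-inactivation centre were close to equal. Xist had 10465 and 11203, a difference of -0.10, and its 4 probes ran from -0.41 to 0.30, so they did not share a sign. Tsix, the antisense repressor of Xist, had 130 and 128 (0.02), and Ftx, an activator of Xist, had 39.0 and 35.2 (0.15). All 7 genes measured of the list of Xist partners lay within 2-fold, with a median of 0.28. Hnrnpu, which ties Xist to the chromosome, had 47686 and 28444. Firre, an X-linked RNA that organises nuclear contacts, had 464 and 599 (-0.37).

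Nuclear-body and other widely expressed RNAs also lay within 2-fold. Malat1, an abundant RNA of nuclear speckles, had 3056 and 3814 (-0.32), and its 4 probes ran from -0.32 to 0.03. Neat1, the scaffold of paraspeckles, had 5003 and 5513 (-0.14). None of the 8 paraspeckle protein genes was 2-fold apart and their median was 0.27, with Sfpq, a core protein of these bodies, at 7874 and 4282 and Nono, its partner, at 41481 and 40472. Kcnq1ot1, the imprinted antisense RNA of Kcnq1, had 1183 and 1354 (-0.19) and 4 probes from -0.36 to 0.02. Tug1 had 673 and 668 (0.01), though 1 of its 3 probes gave 0.69. Oip5os1, also called Cyrano, had 2283 and 1905 (0.26), and Norad, which binds Pumilio proteins, had 556 and 568 (-0.03).

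Among the 117 long noncoding RNAs that are not snoRNA hosts, 10 (8.55%) exceeded 2-fold upward in Th9+IFNgamma and 7 (5.98%) exceeded it downward. The shares among all named genes were near these, at 5.15% and 7.42%. The median of the 117 was -0.10, with a range from -2.42 to 2.42. Most of the transcripts that were higher were dim in Th9. After Dleu2 came 0610040B10Rik with 126 and 27.9, a difference of 2.18 (0.88 with normexp), and 1700028J19Rik with 146 and 33.7, a difference of 2.12 (1.06). Appbp2os had 193 and 51.6, a difference of 1.90 (1.05). BC064078 had 80.8 and 24.7, a difference of 1.71 (0.60), and AI504432 had 205 and 67.0, a difference of 1.61 (1.01). 4930581F22Rik had 274 and 112, a difference of 1.28 (0.81), and 4921531C22Rik had 65.4 and 28.7, a difference of 1.19 (0.28). A630072M18Rik at 1.17 and 4933432I09Rik at 1.13 lay outside the rule for named genes and are given after their values were seen. Each of the 10 had a Th9 signal of 112 or less, where the size of a fold rests on the background that was subtracted.

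The 7 that were lower spanned a wider range of signal. R74862 had 29.3 in Th9+IFNgamma and 157 in Th9, a difference of -2.42 (-1.35 with normexp), and 2810429I04Rik had 18.6 and 67.3, a difference of -1.86 (-0.73). Map2k3os had 95.0 and 276, a difference of -1.54 (-1.20). Phxr4 had 436 and 954, a difference of -1.13 (-0.97), and Gm4532 had 96.8 and 207, a difference of -1.09 (-0.73). With Mir22hg above, the last was E030011O05Rik at 40.4 and 83.5 (-1.05), one of those just inside the 2-fold limit. Just outside it lay 6230400D17Rik at -0.91 and the telomerase RNA Terc at -0.89. Promoter windows of 300 bases were searched on both strands for a pair of GAAA words spaced by 2 bases, which interferon regulatory factors bind, and for TTCNNNGAA, which STAT proteins bind. Neither was in the 9 windows listed for 8 of the 10 higher RNAs or in the 7 windows of the lower ones. Of all promoter windows, 3.443% and 8.298% held them. At such shares, none among so few windows is unremarkable, and nothing is concluded from it.

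**Figure D3:**
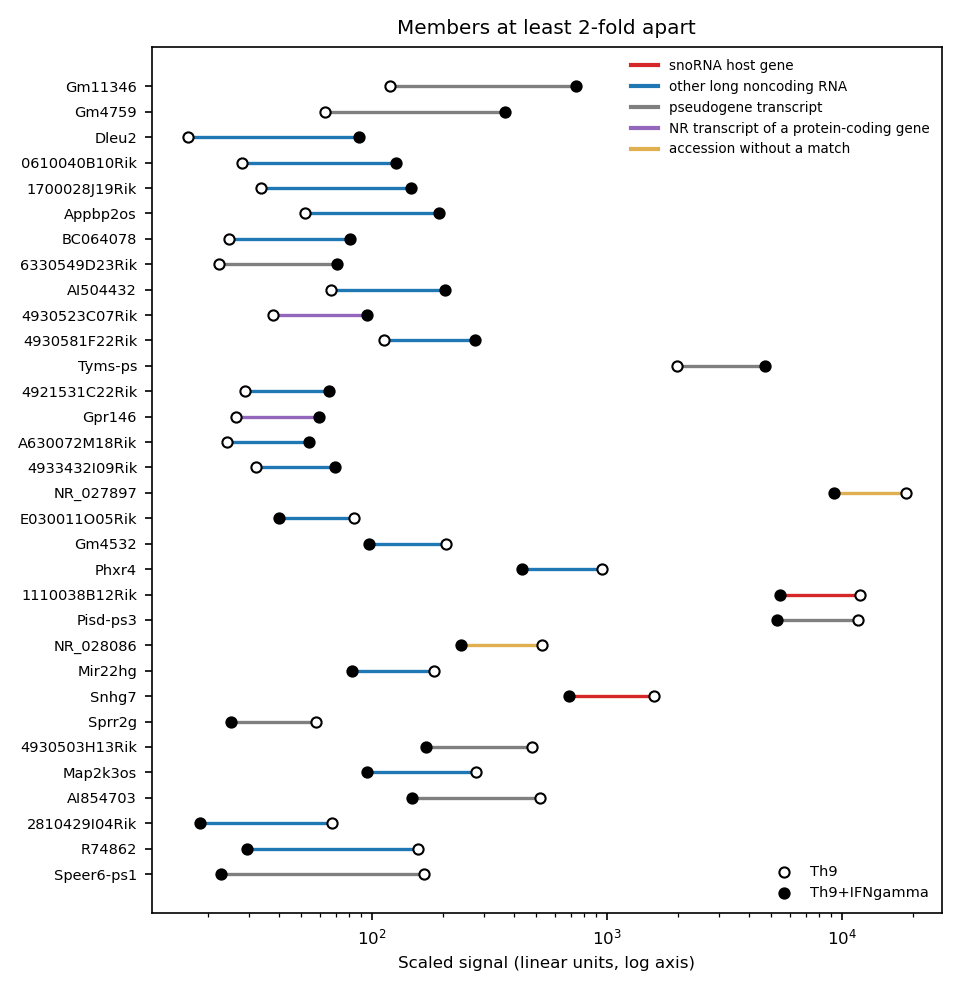
Scaled signal (linear units, log axis) on the Th9 array (open points) and the Th9+IFNgamma array (filled points) for the 32 noncoding features at least 2-fold apart, ordered by log2 difference, with line colour giving the class. Of the 16 that were higher in Th9+IFNgamma, Tyms-ps is the brightest at 4691; the lower ones reach from 2810429I04Rik at 18.6 to NR_027897 at 9243 on the Th9+IFNgamma array.

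Several of these transcripts lie beside coding genes that differed as well, by RefSeq gene order. R74862 sits next to Cd81, a tetraspanin of the cell surface, which had 4320 in Th9+IFNgamma and 18422 in Th9, 4.26-fold lower, and to Tspan32, another tetraspanin, which was 1.94-fold lower. Phxr4 lies beside Maml2, a coactivator of Notch, which was 4.31-fold lower. AI504432 adjoins Cym, which was 5.65-fold higher, and BC064078 adjoins the C-type lectin gene Clec2g, 3.34-fold higher, with Clec2d on its other side at 0.22. Other pairs shared no direction or only a small difference: 0610040B10Rik lies between Zdhhc4 at 0.21 and Kdelr2 at -0.19, and 1700028J19Rik between Klk1b3 at 0.13 and 2410002F23Rik at -0.36. Beside the snoRNA hosts, Snhg7 lies between Dipk1b at -0.97 and Surf6 at 0.02, and 1110038B12Rik between Neu1 at -0.81 and Hspa1a at 0.60.

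Counted over all long noncoding and host members, the 10 past 2-fold upward had 20 measured neighbours, of which 2 were themselves past 2-fold upward and 0 downward, with a median of 0.13. The 9 that were lower had 17 neighbours, of which 0 were higher and 2 lower, with a median of -0.47. The 105 members within 2-fold had 209 neighbours, 5 higher and 12 lower, with a median of 0.01. As shares, 10.0% of the neighbours of the higher members were higher and 11.76% of those of the lower members were lower. Among all named protein-coding genes, 5.12% were higher and 7.42% lower. Each of the first 2 shares rests on 2 genes. These are counts of a few genes from the same 2 arrays and carry no test.

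Antisense and overlapping RNAs could be set beside the gene in their symbol in 11 pairs. The sign was shared in 5 of the 11, and 6 pairs lay within 0.5 of each other on the log2 scale. Appbp2os, at 1.90, stood apart from Appbp2, which encodes a binding protein of the amyloid precursor and had 8291 and 7608 (0.12). Map2k3os, at -1.54, went with a smaller difference of -0.49 in Map2k3, a kinase upstream of p38. Cep83os had 685 and 407 (0.75) while Cep83, a centriole protein gene, was at -0.01. Foxd2os had 1908 and 1383 (0.46) while the forkhead gene Foxd2 was near background with 26.3 and 31.5. Of RNAs named as regulators of a neighbour, Flicr, which restrains Foxp3 in regulatory T cells, had 148 and 93.4 (0.66), and Foxp3 itself had 2972 and 1424, 2.09-fold higher. Chaserr, which restrains the chromatin remodeller gene Chd2, had 17575 and 11316 (0.64, with 0.73 from its other probe), and Chd2 had 1607 and 1436 (0.16). Il1bos, which overlaps the interleukin-1beta gene, was detected in Th9+IFNgamma only, and Il1b was not well above background on either.

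Pseudogene transcripts, 68 in number, were balanced: 4 (5.88%) lay past 2-fold upward and 5 (7.35%) past 2-fold downward. Among all named genes the shares were 5.15% and 7.42%. Of the 68 pseudogene transcripts, 34 lay below 0, and their median was close to 0. Their extremes were also the extremes of the 234 features measured on both arrays. Gm11346 had 740 in Th9+IFNgamma and 119 in Th9, a difference of 2.63 (2.10 with normexp), and its neighbours Cmah, whose product hydroxylates sialic acid, and Ripor2 were 2.16-fold and 2.14-fold higher. Gm4759 had 367 and 63.1, a difference of 2.54 (1.75), and lies beside Gvin1, a very large interferon-inducible GTPase gene, which had 8903 and 1774, 5.02-fold higher. 6330549D23Rik had 71.2 and 22.2, a difference of 1.68 (0.51). Tyms-ps had 4691 and 1980, a difference of 1.24 (1.33).

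On the other side, Speer6-ps1 had 22.7 and 166, a difference of -2.87 (-1.49 with normexp). AI854703 had 148 and 519, a difference of -1.81 (-1.48), while Gimap9, its neighbour and a GTPase gene of lymphocytes, differed by 1.00. 4930503H13Rik had 170 and 481, a difference of -1.50 (-1.20), and its neighbour Prdx4, a peroxiredoxin gene, was 2.35-fold lower. Sprr2g had 25.03 and 57.7, a difference of -1.21 (-0.63). Pisd-ps3 had 5304 and 11679, a difference of -1.14, and its other probe gave -0.99. Neighbours are named for only some of the pseudogene transcripts, and no count of them over the class is given.

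A probe to a pseudogene can also take up RNA of a near-identical parent, so values of such pairs are uncertain as to source. Pseudogenes whose symbol names no parent, such as Gm4759 beside Gvin1, carry the same uncertainty and are not among the pairs below. In 12 pairs where both were measured, 9 shared a sign, 9 lay within 0.5 of each other, and the median absolute difference between the log2 values was 0.25. Tyms-ps at 1.24 stood by Tyms, the thymidylate synthase gene, at 1.25 (16048 and 6743). H2-K2 had 122351 and 67687 (0.85), and H2-K1, a classical class I histocompatibility gene, differed by 0.63. Hmgb1-rs17 at 0.52 came close to Hmgb1, a chromatin protein gene, at 0.54. Pisd-ps3 went with -0.66 in Pisd, the phosphatidylserine decarboxylase gene. Spn-ps was the main exception, at -0.66 with signals of 20.3 and 32.0, against 0.52 for Spn, which encodes CD43.

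**Figure D4:**
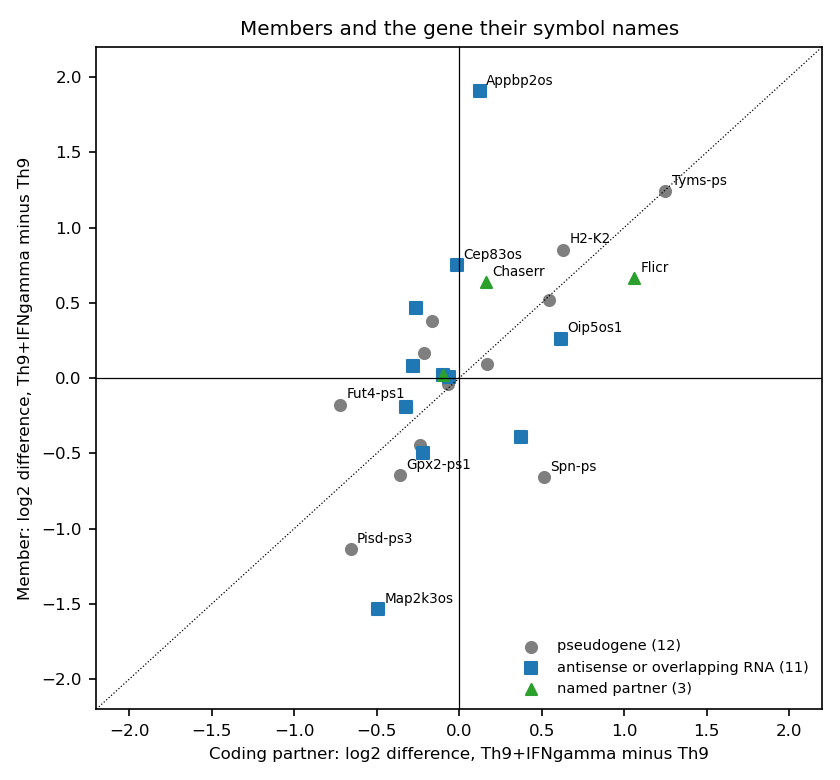
Log2 difference of a noncoding member (y axis) against that of the gene its symbol names or its named partner (x axis), both Th9+IFNgamma minus Th9, for 12 pseudogenes (grey), 11 antisense or overlapping RNAs (blue) and Tsix, Flicr and Chaserr with their partners Xist, Foxp3 and Chd2 (3 pairs, green); the dotted line marks equal differences. Tyms-ps lies on the line with Tyms at 1.24 and 1.25, and Appbp2os lies far above it at 1.90 against 0.12.

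The 7 structured RNAs all lay within 2-fold, with a median of -0.07. Terc, the RNA template of telomerase, was the lowest, with 179 in Th9+IFNgamma and 331 in Th9 (-0.89), and Tert, the catalytic protein of the enzyme, had 109 and 143. Rmrp, the RNA of RNase MRP, had 1248 and 1418 (-0.18). Of 12 measured telomerase, RNase P and RNase MRP protein genes, 1 was 2-fold higher and none 2-fold lower, with a median of 0.28. That gene was Rpp25, with 75.2 and 31.1. The snoRNAs with their own probes were Snora3 at 1281 and 1171 (0.13), Snord35b at 309 and 283 (0.13), Snord33 at 494 and 459 (0.10) and Snora69 at 220 and 295 (-0.42). Rn28s1, the 28S ribosomal RNA, had 1595 and 1676 (-0.07). The labelling kit primes from poly(A) tails. Where a mature structured RNA lacks such a tail, it is uncertain which RNA its probe took up.

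NR_ transcripts of genes that also make protein numbered 10, of which 2 were at least 2-fold higher and the median was -0.04. 4930523C07Rik had 95.4 and 38.0, a difference of 1.33 (0.53 with normexp). Gpr146, an orphan receptor gene, had 59.5 and 26.3, a difference of 1.18 (0.29), and is given after its value was seen. The 25 features whose accession had no match in the gene table had a median of -0.09. Among them 0 were 2-fold higher and 2 (8.0%) 2-fold lower, against 5.15% and 7.42% of all named genes. Of these 2, NR_028086 had 238 and 530 (-1.15), and NR_027897 had 9243 and 18706 (-1.02), just inside the limit, with -0.77 from its other probe.

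**Figure D5:**
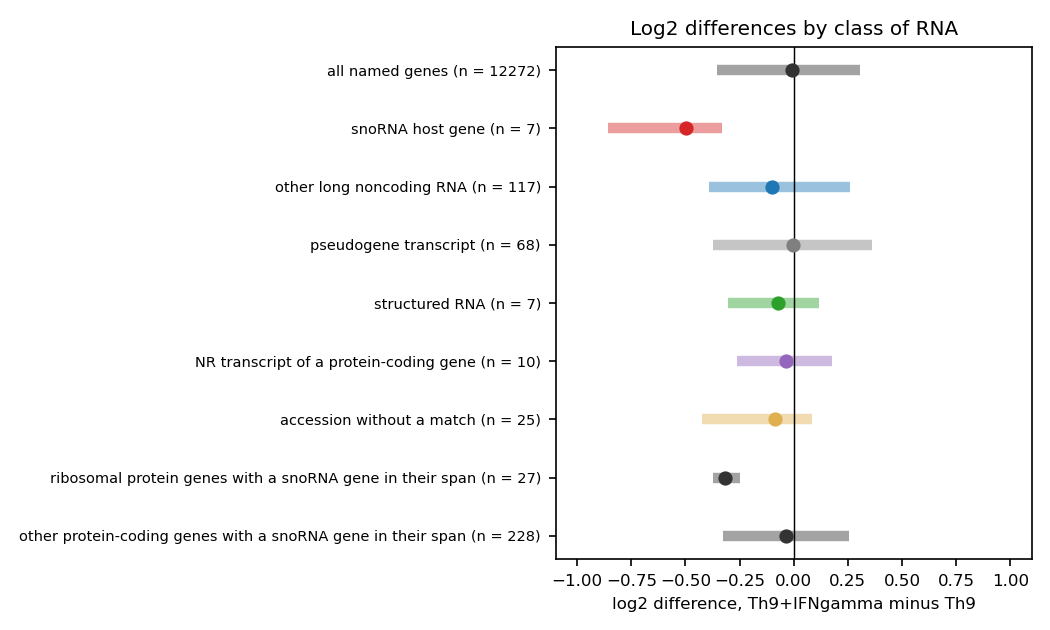
Log2 difference, Th9+IFNgamma minus Th9, by class of RNA, with all named genes and the coding genes that hold a snoRNA gene for comparison; the dot is the median and the bar runs from the lower to the upper quartile over features, so it is not an error. snoRNA host genes (median -0.50) and ribosomal protein genes with a snoRNA gene (median -0.32) have bars wholly below 0, and the other classes straddle 0. Ribosomal protein genes without a snoRNA gene are not shown.

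Transcripts detected on 1 array alone have only a bound for their fold. Among all 13234 detected named genes, 3.56% were seen in Th9+IFNgamma only and 3.66% in Th9 only. Of the 261 noncoding features, 17 and 10 were so seen. Bounds were not worked out for all genes. The counts past a 2-fold bound below therefore have no array-wide share beside them, and nothing is read from their balance. Of the 17 noncoding features seen in Th9+IFNgamma alone, 8 were at least 2-fold higher by their bound, which divides the bright signal by the detection floor of the dim array (12.5 in Th9, 11.1 in Th9+IFNgamma, each the lowest signal called well above background there) or by the dim signal where that was larger. The accession NR_033577 had 822 in Th9+IFNgamma and 2.81 in Th9, at least 65.7-fold higher (11.9-fold with normexp), and was the only one bright enough to keep a 2-fold bound under that correction. 1700026D11Rik had 81.0 and was at least 6.48-fold higher. 8430431K14Rik had 59.4 and was at least 4.75-fold higher. Cahm had 50.8 and was at least 4.06-fold higher, and C230035I16Rik had 46.5 and was at least 3.37-fold higher. Of the 10 seen in Th9 alone, 3 had a bound of 2-fold or more: 4930512B01Rik with 28.4 in Th9 and a bound of 2.56, 4933407L21Rik with 26.4 and 2.38, and U90926 with 23.8 and 2.14.

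Agreement between probes gives a check within each array. Of the 28 members with more than 1 measured probe, 19 had 1 sign over their probes. The range of log2 differences between probes of a member had a median of 0.16 and was widest, at 1.78, for 2900052N01Rik. Probes of 1 gene can lie in different exons or isoforms.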

How the data were processed

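Total RNA (500 ng) of each culture was labelled with Cy3 and hybridised to a one-colour Agilent mouse array; the kit primes from poly(A) tails. Each deposited file, per the file headers, was made with Agilent Feature Extraction 10.7.3.1 (10.7 in the submitters' processing notes) and holds linear intensities per spot, background-subtracted by the authors' software, with detection flags. The deposited series matrix holds log2 values, which equalled log2 of the median signal less a constant per array; it was used as an alternative. Control spots and outlier spots (99 and 71) were dropped, spots of a probe averaged on the log2 scale, and each array set to its 75th percentile (632 and 567, a ratio of 1.11). No spot was saturated. The number of arrays, 1 per condition, limits the precision, so no test was run. A feature took its brightest NR_ probe well above background on both arrays. The files hold no mean signal, so normexp (limma 3.58.1, R 4.3.3, offset 50) used median signals, added after seeing the files. Other steps used Python 3.11.15, pandas 2.3.3 and matplotlib 3.10.9. The difference calculation was tested on simulated data.

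Accessions were matched to RefSeq genes (GRCm38.p6), and 267 of 301 member probes (88.7%) matched. The table gives no strand, so a snoRNA in a gene's span may lie on either strand, and pseudogenes were taken from the gene type. Named were all snoRNA hosts, 35 known RNAs where detected, the 12 largest other differences in each direction past 2-fold, the 5 largest bounds each way, partner genes 2-fold apart and the members nearest the 2-fold limit. The members and lists were chosen with earlier results of these data known.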

Additional observations from a re-analysis of the deposited data

How the results depend on the processing

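The counts past 2-fold depended on how dim signals were treated. Against 16 higher and 16 lower among 234 features, normexp on median signals left 6 higher and 8 lower. A signal of at least 100 on both arrays left 137 features with 3 higher and 8 lower, beside 4.52% higher and 4.9% lower of all genes so filtered. No filter on dim probes gave 30 higher and 23 lower among 261. Under normexp, 1 bound stayed past 2-fold for the Th9+IFNgamma array alone and 0 for the Th9 array alone. Of the 29 named members past 2-fold on both arrays, all 29 kept their sign in every setting that gave a value, and 14 were still past 2-fold under normexp, 26 with median scaling, 28 with quantile normalisation, 28 with loess, 27 with the probe of smallest difference (NR_027897 and Pisd-ps3 fell short) and 29 with the series matrix. Median scaling moved the median of all genes to 0.11. No class median moved by more than the spread between spots under any setting run. The planned normexp on mean signals was not run. No paired analysis was possible because each condition had 1 array. Signal over background limits folds of dim transcripts, and without replicates no difference can be set against the spread between cultures.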
